A study of Boehmeria nivea with 10 samples.

Results

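The contigs described here are 150 pieces of root transcript from ramie (Boehmeria nivea), a bast-fibre plant of the nettle family, whose level was highest in young roots formed in water. They were taken from 40300 assembled contigs on the values themselves. A contig qualified if it carried no cluster number of the assembly, had an expected count of at least 10 in all 9 libraries and had a late hydroponic mean within 1.4 times of its terrestrial mean, in either direction. The 5149 contigs that met these conditions, called candidates below, were ranked by the lowest early hydroponic level divided by the highest of the 6 other libraries, and the first 150 were kept. These early-peak contigs were therefore high in early hydroponic roots, and alike in the other kinds of root, by construction.

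Early hydroponic roots were water-grown roots of 5-day-old seedlings, late hydroponic roots were water-grown roots of 30-day-old seedlings, and terrestrial roots came from soil-grown seedlings of 30 days. Each group held 3 libraries, and the labels neither name a cultivar nor state that replicates were separate plants. Early hydroponic roots differed from terrestrial roots in medium and in seedling age together, and a further sample, a pool of stages, was not used. Listed expected counts totalled 9499903 to 11522430 reads per library. Levels are given as FPKM, fragments per kilobase of contig scaled to library depth by the authors.

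Roots that form in water meet less oxygen than roots in well-aired soil, and water roots of many plants have air spaces in the cortex and few root hairs. A young root also holds a larger share of dividing and elongating cells than an older one. The tables pair no contig with a gene name, so neither a function nor a cell type is given for any of the 150, and root marker genes could not be looked up.

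The early peak was shallow. Over the 150 contigs the median of the mean level was 31.8 FPKM in early hydroponic roots, 17.6 FPKM in late hydroponic roots and 16.7 FPKM in terrestrial roots. The early mean was a median of 1.80 times the late mean (range 1.29 to 4.44) and 2.0 times the terrestrial mean (1.31 to 5.03). It was at least 1.5 times both other means in 116 of the 150, at least 2 times both in 43, and at least 3 times both in 3, namely Unigene9_mixA, Unigene1706_mixA and Unigene2624_mixA. All of these values come from the libraries that chose the contigs and are a description of the choice.

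**Figure D1:**
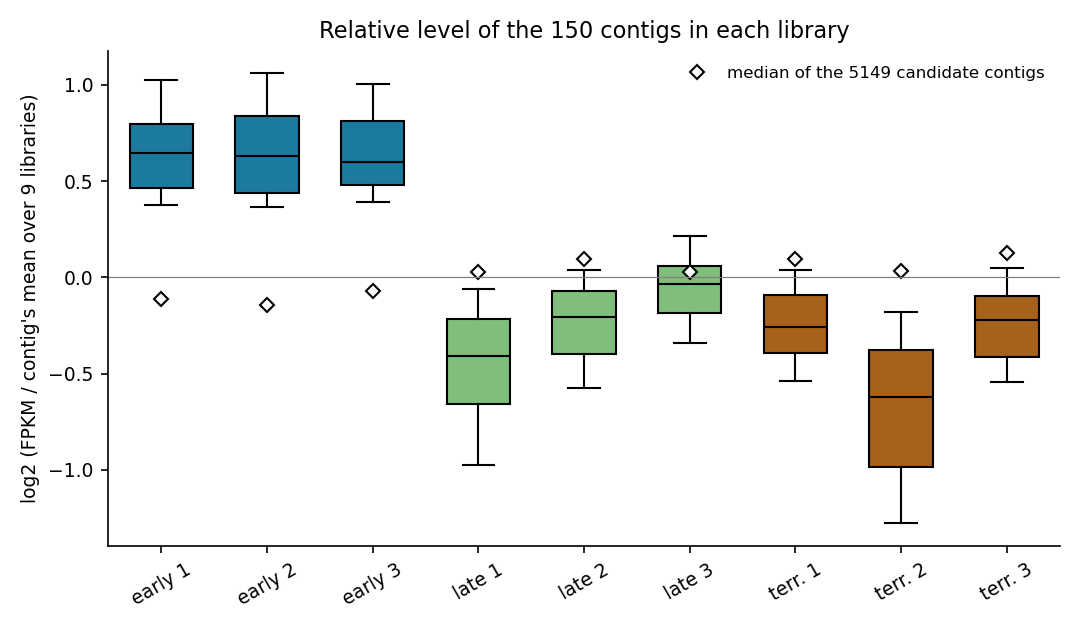
Level of the 150 early-peak contigs in each library, as log2 of FPKM over the contig's own geometric mean across the 9 libraries; boxes span the quartiles, whiskers the 10th to 90th percentile, and diamonds mark the median of the 5149 candidates. The medians lie at 0.60 to 0.65 in the early libraries, with late hydroponic replicate 3 nearest to them at -0.03 and terrestrial replicate 2 farthest at -0.62.

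Unigene9_mixA, of 1812 bases, led the ranking. It stood at 42.1, 40.7 and 50.4 FPKM in early hydroponic replicates 1, 2 and 3, at 4.76, 13.6 and 14.6 FPKM in the late ones, and at 7.38, 11.8 and 7.32 FPKM in the terrestrial ones. The lowest early library was 2.79 times the highest other one, which was late hydroponic replicate 3. Its 95% interval for counting error alone was 2.44 to 3.21. Its early mean was 5.03 times the terrestrial mean, the highest such fold among the 150. None of its 9 expected counts was whole, which means that reads were divided between it and other contigs.

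Unigene1706_mixA, of 1284 bases, came second at a lower level. Its early libraries held 11.7, 18.0 and 10.9 FPKM, its late ones 4.34, 1.39 and 3.40 FPKM and its terrestrial ones 3.58, 1.99 and 2.61 FPKM. Replicates were uneven, since the early and the late values each spread over more than 1.5-fold. The ratio that ranked it was 2.51, with a counting interval of 1.84 to 3.47.

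Unigene20116_mixA, of 1687 bases, was the most even of all in early roots, at 28.15, 28.22 and 28.16 FPKM, a coefficient of variation of 0.13%. Its late libraries held 9.78, 11.2 and 11.6 FPKM and its terrestrial ones 11.9, 13.0 and 12.7 FPKM. Every terrestrial library thus lay above every late one, although by little. Unigene1201_mixA, of 1120 bases, had 47.4, 47.3 and 59.3 FPKM early, 11.3, 19.2 and 19.2 FPKM late and 16.9, 22.4 and 17.3 FPKM in terrestrial roots. These first 4 contigs were the ones whose lowest early library reached 2 times the highest other library.

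In 5 of the next 6 contigs late hydroponic replicate 3 held the highest value after the early libraries, and in Unigene5609_mixA late hydroponic replicate 1 did. Unigene18090_mixA (1285 bases) had 56.0, 57.6 and 56.8 FPKM early, 23.0, 19.2 and 28.4 FPKM late and 16.8, 12.8 and 21.0 FPKM in terrestrial roots. Unigene5609_mixA (1467 bases) had 55.8, 52.3 and 59.2 FPKM early, 26.5, 22.8 and 26.3 FPKM late and 21.7, 19.1 and 21.5 FPKM in terrestrial roots. In Unigene5609_mixA all 3 late libraries lay above all 3 terrestrial ones, while in Unigene18090_mixA those groups overlapped.

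Unigene2624_mixA (1302 bases) was the most abundant of the first 10 and was uneven, with 154, 99.1 and 119 FPKM early, 28.4, 41.7 and 50.7 FPKM late and 39.5, 15.7 and 32.5 FPKM in terrestrial roots. Terrestrial replicate 2 was its lowest library, and late hydroponic replicate 3 the highest after the early ones. Unigene6939_mixA (1822 bases) had 11.0, 10.2 and 10.3 FPKM early, 2.70, 4.36 and 5.33 FPKM late and 5.25, 1.59 and 2.55 FPKM in terrestrial roots. Unigene10330_mixA (1137 bases) had 46.6, 54.5 and 52.0 FPKM early, 18.1, 18.4 and 24.7 FPKM late and 16.5, 10.9 and 23.9 FPKM in terrestrial roots. The late and terrestrial libraries of both overlapped. Unigene18115_mixA, the last of the first 10 and of 1882 bases, was rare, at 4.94, 5.44 and 4.64 FPKM early, 1.01, 1.77 and 2.50 FPKM late and 2.12, 0.70 and 2.32 FPKM in terrestrial roots, with 14 counts in its lowest library.

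**Figure D2:**
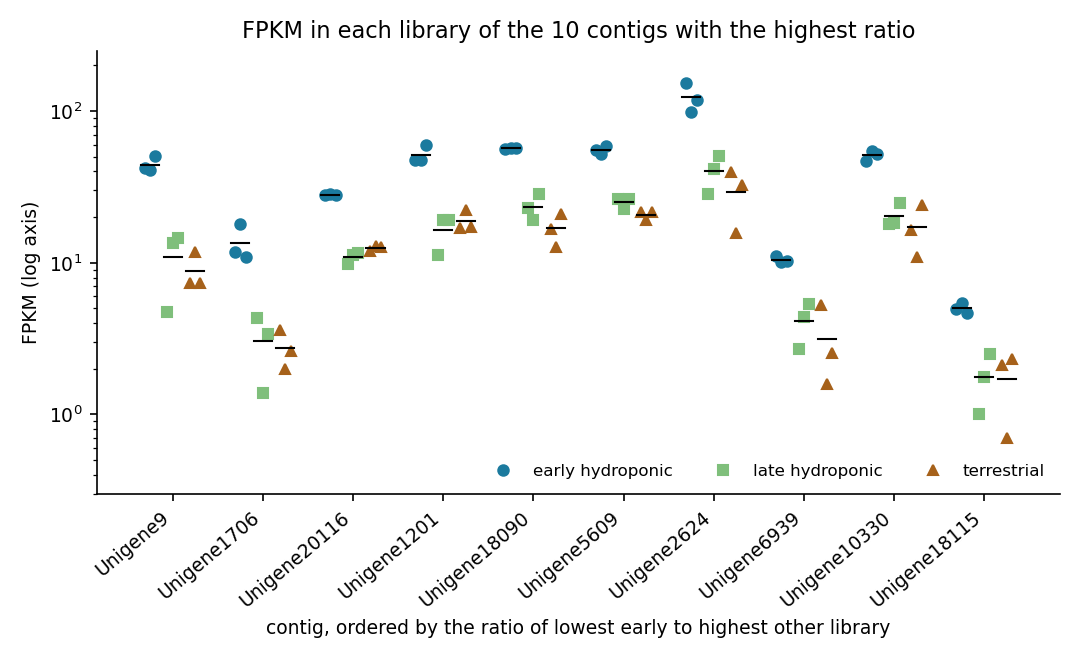
FPKM (log axis) in each of the 9 libraries for the 10 contigs with the highest ratio of lowest early to highest other library; symbols are single libraries and lines are group means of 3. In each contig the 3 early points lie above the other 6, as the rule requires, while the late and terrestrial points overlap in all but Unigene20116_mixA and Unigene5609_mixA.

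The early-peak contigs were more abundant in early roots than candidates in general, at a median of 31.8 FPKM against 13.0 FPKM. This difference largely follows from the choice, which ranked contigs on their early level relative to the other libraries. In late and terrestrial roots the medians were closer, at 17.6 and 16.7 FPKM for the early-peak contigs and 15.1 and 15.5 FPKM for the candidates. Among the 150, 18 averaged at least 100 FPKM early, 80 lay from 20 to under 100, 45 from 5 to under 20 and 7 under 5. Across the 150 contigs the early level and the ranking ratio had a Pearson correlation of 0.047 and a Spearman correlation of 0.03 on the log2 scale, a description over contigs that share the same libraries.

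The most abundant, Unigene1309_mixA, is short at 675 bases and held 2361, 2952 and 2352 FPKM in early, 942, 1428 and 1678 FPKM in late and 1359, 1689 and 1112 FPKM in terrestrial libraries. Its late and terrestrial means were almost equal, at 1349 ± 374 and 1387 ± 290 FPKM (SD, n = 3 each). Unigene1312_mixA (1117 bases) averaged 1010 ± 40.04 FPKM early, 459 ± 99.4 FPKM late and 610 ± 26.0 FPKM in terrestrial roots (n = 3, SD), and its terrestrial libraries all lay above its late ones. Unigene1974_mixA (681 bases) showed the opposite order outside early roots, with 845 ± 30.5 FPKM early, 457 ± 43.5 FPKM late and 357 ± 13.6 FPKM in terrestrial roots (SD, n = 3).

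Unigene1_mixA (1451 bases) averaged 520 ± 23.8 FPKM early, 242 ± 52.9 FPKM late and 180 ± 8.52 FPKM in terrestrial roots (SD, n = 3). Unigene2426_mixA (2403 bases) averaged 494 ± 22.4 FPKM early, 211 ± 45.4 FPKM late and 259 ± 51.2 FPKM in terrestrial roots (SD, n = 3). In all 5 abundant contigs none of the 9 expected counts was whole, so at least some of their reads were divided between contigs. The counts do not give the share of reads that was divided.

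Together the 150 contigs took up 1.74 ± 0.05% of summed FPKM in early hydroponic, 0.92 ± 0.12% in late hydroponic and 0.93 ± 0.03% in terrestrial libraries (SD, n = 3 each). The 5 most abundant made up 41.2 to 43.4% of that sum in early, 36.0 to 40.4% in late and 39.0 to 46.3% in terrestrial libraries. In whole-root RNA, fewer cells of a type and less RNA per cell cannot be told apart.

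Sharing of reads was more common among the early-peak contigs than among the candidates, a property the rule did not use. Expected counts were whole (within 0.005) in all 9 libraries for 109 of 150 early-peak contigs (72.7%) and for 4432 of 5149 candidates (86.1%). They were whole in no library for 17 (11.3%) and 370 (7.19%). The share with all counts whole was lower in the early-peak contigs at each level of abundance: 82.1% against 87.6% under a mean of 100 counts, 79.5% against 89.8% from 100 to 300, 75% against 85.6% from 300 to 1000, and 51.6% against 73.0% from 1000 upward. These levels held only 28, 39, 52 and 31 early-peak contigs, and the mean count includes the early libraries that ranked them. The early-peak contigs were also somewhat longer, with a median of 1616 against 1406 bases. No test was made of either difference, since contigs are not independent of each other.

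The longest members were Unigene29483_mixA, of 4504 bases, and Unigene5880_mixA, of 3990 bases. Unigene29483_mixA averaged 23.1 ± 2.05 FPKM early, 15.7 ± 1.45 FPKM late and 12.0 ± 0.61 FPKM in terrestrial roots (SD, n = 3). Unigene5880_mixA averaged 54.2 ± 3.83, 34.3 ± 3.0 and 33.2 ± 2.55 FPKM in early hydroponic, late hydroponic and terrestrial roots (SD, n = 3). Both had at least 549 counts in every library, and the counting intervals of their ratios were 1.13 to 1.36 and 1.25 to 1.42.

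The shortest members were Unigene8397_mixA, of 228 bases, and Unigene29595_mixA, of 230 bases, each with a lowest count of 16. Unigene8397_mixA averaged 24.5 ± 4.28 FPKM early, 13.0 ± 2.22 FPKM late and 9.27 ± 1.30 FPKM in terrestrial roots (n = 3, SD), and its ratio of 1.39 had a counting interval of 0.87 to 2.26. Unigene29595_mixA averaged 21.9 ± 1.84, 14.0 ± 2.03 and 10.4 ± 2.42 FPKM in early hydroponic, late hydroponic and terrestrial roots (n = 3, SD), and its interval ran from 0.83 to 2.21. At these counts the gap between the nearest single libraries could not be told from counting error. The lower bound of that interval exceeded 1 in 126 of the 150. These intervals cover counting error only and were taken after the contigs had been chosen for the ratio.

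The end of the list has no natural break. The last members were Unigene15561_mixA (2020 bases) with a ratio of 1.207, Unigene7445_mixA (1023 bases) with 1.206 and Unigene31805_mixA (570 bases) with 1.2054, while Unigene25917_mixA, Unigene2386_mixA and Unigene31111_mixA just missed it with 1.2054, 1.2053 and 1.2052. Unigene31805_mixA, the last one in, averaged 71.9 ± 2.50 FPKM early, 55.2 ± 2.66 FPKM late and 53.7 ± 5.07 FPKM in terrestrial roots (SD, n = 3). Unigene25917_mixA, the first one out, averaged 97.1 ± 10.4 FPKM early, 52.1 ± 7.36 FPKM late and 68.4 ± 2.47 FPKM in terrestrial roots (SD, n = 3), so its group means were farther apart than those of the last member. Of the 5149 candidates, 464 (9.01%) had every early library above the other 6.

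Turned round, the rule found larger gaps in the other direction. Among the same candidates, 1263 (24.5%) had every early library below the other 6, and at rank 150 the early-peak ranking had a ratio of 1.21, against 1.53 here. Its first 2 contigs were Unigene785_mixA (438 bases), at 15.9 ± 1.06 FPKM early, 239 ± 7.85 FPKM late and 334 ± 106 FPKM in terrestrial roots (n = 3, SD), and Unigene25582_mixA (1013 bases), at 3.88 ± 1.18, 108 ± 92.1 and 105 ± 96.4 FPKM in the same order (SD, n = 3). The count of contigs below outnumbered the count above on each scale tried. There were 718 above and 869 below after TMM rescaling of FPKM. With FPKM brought to the same sum in every library there were 539 above and 1087 below. The gap at rank 150 depended on the scale as well. The ratios for above and below were 1.315 and 1.398 after TMM rescaling, and 1.244 and 1.485 with equal sums.

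A peak in late hydroponic roots, with early and terrestrial means within 1.4 times, was sharper at the top of its list. Its first contigs were Unigene24182_mixA (879 bases), at 5.91 ± 2.06 FPKM early, 86.2 ± 23.2 FPKM late and 5.77 ± 3.33 FPKM in terrestrial roots (n = 3, SD), and Unigene5139_mixA (1332 bases), at 1.48 ± 0.65, 27.2 ± 14.9 and 1.76 ± 0.92 FPKM in the same order (SD, n = 3). The ratio for the early peak was 2.79 at rank 1 and 1.21 at rank 150, against 7.72 and 1.23 for the late peak. The early peak did not overlap in 464 of 5149 candidates (9.01%) on the deposited scale and in 718 of 5202 (13.8%) after TMM rescaling. The late peak did not overlap in 561 of 4077 (13.8%) and 410 of 4359 (9.41%), so which peak was the more frequent turned with the scale. At rank 150 TMM rescaling gave 1.315 for the early and 1.179 for the late peak.

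**Figure D3:**
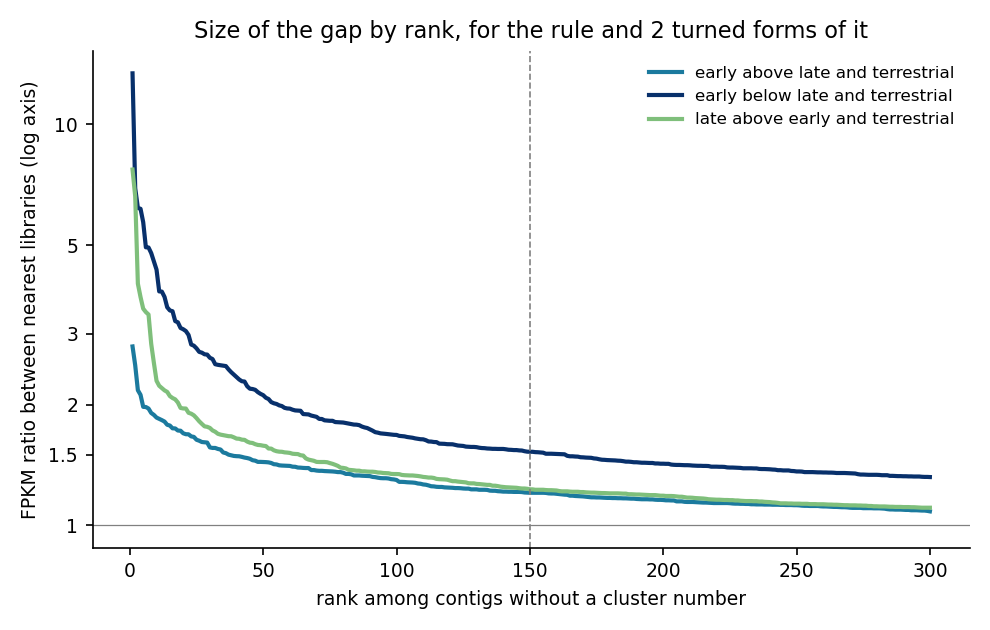
Ratio between the nearest libraries of the group set apart and of the other groups (log axis), by rank, for contigs highest in early roots, lowest in early roots and highest in late hydroponic roots; the dashed line marks rank 150 and the solid line a ratio of 1. The early-peak ranking starts at 2.79 and reaches 1.21 at rank 150, where the early-lowest ranking stands at 1.53.

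Contigs with a cluster number, which the rule left out, held the pattern too. The ratio of the last member was reached by 150 of 5149 candidates without a cluster number (2.91%), against 57 of 2019 contigs with one that met the other conditions (2.82%). Every early library lay above the other 6 in 9.01% of the contigs without a cluster number, against 133 (6.59%) of those with one, and after TMM rescaling in 13.8% of those without, against 10.9% of those with one. The difference was not tested. The first 2 members had narrower gaps than the first 2 contigs with a cluster number, while at rank 10 the ratio was 1.86 among the members, against 1.67. CL341.Contig3_mixA (2503 bases) stood at 72.4, 60.3 and 54.1 FPKM in early, 8.70, 4.81 and 10.1 FPKM in late and 6.79, 4.39 and 9.92 FPKM in terrestrial libraries, a ratio of 5.34. CL315.Contig1_mixA (1781 bases) stood at 26.3, 30.1 and 29.0 FPKM early, 2.28, 2.64 and 6.91 FPKM late and 4.85, 2.32 and 3.89 FPKM in terrestrial libraries, a ratio of 3.80. CL3432.Contig4_mixA (1243 bases) averaged 29.7 ± 3.08, 9.75 ± 1.38 and 9.80 ± 3.54 FPKM in early hydroponic, late hydroponic and terrestrial roots (SD, n = 3), with a ratio of 2.11, below the 2.17 of Unigene20116_mixA at the same rank. Expected counts were whole in 4, 5 and 0 of 9 libraries for these 3 contigs, so reads were divided among relatives there too.

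Late and terrestrial levels were held alike by the rule, yet the early-peak contigs leaned to one side of the band. The late mean exceeded the terrestrial mean in 110 of 150 (73.3%), against 46.6% of candidates. This count was 90 without late hydroponic replicate 3 and 81 without terrestrial replicate 2, where 47.5% and 44.2% of candidates had the higher late mean. Every late library lay above every terrestrial one in 23 contigs (15.3%, against 11.7% of candidates) and below in 3 (2.0%, against 16.1%). The 3 were Unigene20116_mixA and Unigene1312_mixA, described above, and Unigene2100_mixA, at 67.0, 64.9 and 64.2 FPKM early, 39.5, 36.2 and 42.6 FPKM late and 53.0, 45.9 and 50.8 FPKM in terrestrial libraries. Unigene2100_mixA was named after its values were seen.

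The contigs nearest the upper edge of the band were Unigene13998_mixA (721 bases) and Unigene11235_mixA (1915 bases), each with a late mean 1.4 times the terrestrial one. Unigene13998_mixA held 122, 199 and 124 FPKM early, 48.3, 70.8 and 44.6 FPKM late and 53.6, 14.6 and 48.9 FPKM in terrestrial libraries. Its difference between late and terrestrial means rested on terrestrial replicate 2, since the other libraries of both groups overlapped. Unigene11235_mixA was even, at 31.8 ± 1.52 FPKM early, 19.3 ± 2.85 FPKM late and 13.8 ± 1.46 FPKM in terrestrial roots (SD, n = 3), with all late libraries above all terrestrial ones.

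At the lower edge stood Unigene2231_mixA (1965 bases) and Unigene724_mixA (979 bases), with late means 0.73 and 0.74 times the terrestrial ones. Unigene2231_mixA was rare, at 5.17, 3.84 and 3.25 FPKM early, 1.23, 0.74 and 2.25 FPKM late and 2.60, 1.48 and 1.74 FPKM in terrestrial libraries. Unigene724_mixA was the least even in early roots, at 48.3, 112 and 70.5 FPKM, a coefficient of variation of 42.0%, with 14.7, 22.3 and 35.1 FPKM late and 39.4, 23.0 and 35.3 FPKM in terrestrial libraries. Late and terrestrial libraries overlapped in both. Unigene13998_mixA was next in unevenness, at 29.4% over the early libraries, and Unigene6031_mixA (3070 bases) was next to Unigene20116_mixA in evenness, at 0.47%, with 59.5 ± 0.28 FPKM early, 45.2 ± 2.75 FPKM late and 36.4 ± 1.13 FPKM in terrestrial roots (SD, n = 3).

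The spread between replicates was smaller in early roots than in the other groups. The median coefficient of variation over the 150 contigs was 6.98% in early hydroponic, 16.8% in late hydroponic and 17.7% in terrestrial roots, against 10.2, 13.7 and 11.2% over the candidates. The rule takes the lowest early library, which favours contigs that are even there. The highest early library was replicate 1 in 49, replicate 2 in 50 and replicate 3 in 51 of the contigs.

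Among the 6 other libraries 2 stood apart in these contigs. Late hydroponic replicate 3 was the highest of the 6 in 67 of 150 (44.7%), against 17.0% of candidates, and the lowest in 2 (1.33%, against 26.6%). Terrestrial replicate 2 was the lowest of the 6 in 83 (55.3%, against 25.4%) and the highest in 9 (6.0%, against 17.3%). The median level of the 150 was 14.5, 18.4 and 21.4 FPKM in late hydroponic replicates 1, 2 and 3 and 17.2, 13.0 and 17.5 FPKM in the terrestrial ones, where the candidates had 14.9, 15.6 and 14.7 FPKM and 15.7, 14.8 and 15.9 FPKM. What set these libraries apart was not tested. The exceptions for late hydroponic replicate 3, named after their values were seen, were Unigene32775_mixA, at 43.8, 42.7 and 35.3 FPKM in late libraries, and Unigene9711_mixA, at 12.2, 17.8 and 10.9 FPKM.

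**Figure D4:**
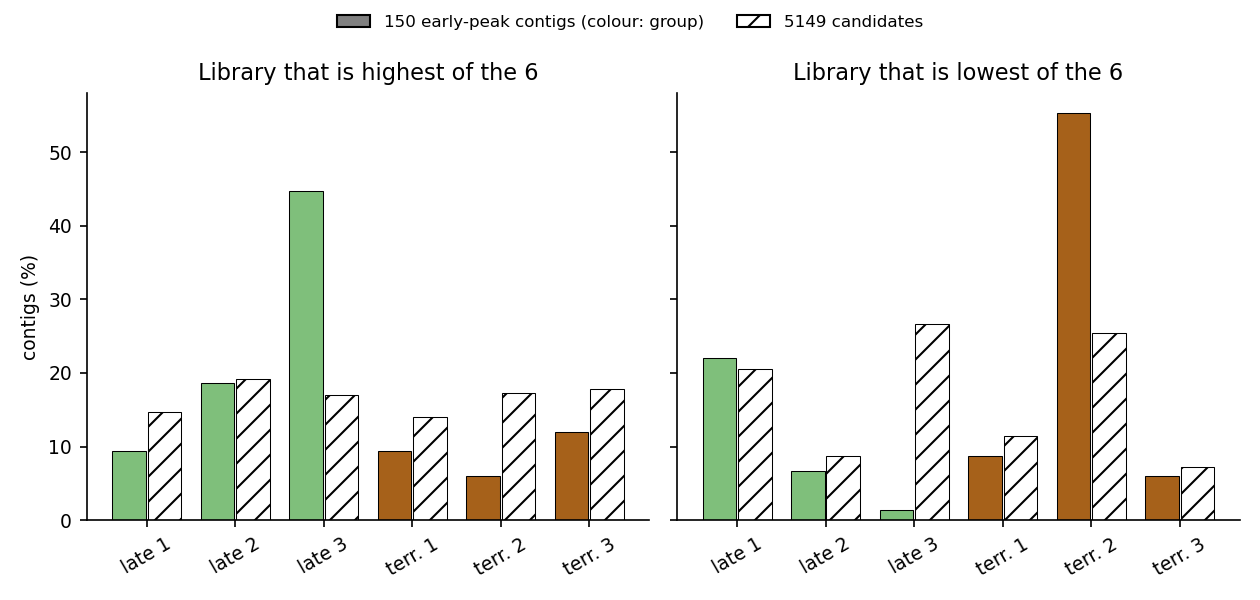
Share of contigs (%) in which each late hydroponic or terrestrial library was the highest (left) or the lowest (right) of the 6, for the 150 early-peak contigs (coloured bars) and the 5149 candidates (hatched bars). Late hydroponic replicate 3 is the highest in 44.7% of the early-peak contigs and terrestrial replicate 2 the lowest in 55.3%, against 17.0% and 25.4% of candidates.

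Late hydroponic replicate 3 also decided which contigs were chosen. Without it, 69 of the 150 stayed in the first 150 and 81 others entered, the ratio at rank 150 was 1.44 in place of 1.21, and 690 of 5442 candidates had every early library above the rest. Of the 81 that entered, 70 had been outside the candidates and 11 had ranked lower. Late hydroponic replicate 3 lay above both other late libraries in 80 of them, which largely follows from their entering once it was dropped. The first was Unigene13123_mixA (1570 bases), named after its values were seen, at 25.2, 26.3 and 23.1 FPKM in early, 1.03, 2.34 and 8.10 FPKM in late and 1.31, 2.16 and 1.03 FPKM in terrestrial libraries. With all 9 libraries its late mean was 2.55 times its terrestrial mean, outside the band. Leaving out any other single library kept 107 to 129 of the 150.

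Libraries that took no part in the choice were also read, as a description. When the rule was applied to 8 libraries and the remaining one was read afterwards, a left-out early library lay above all 6 others in 142 of 150 contigs for replicate 1 (94.7%), 147 for replicate 2 (98.0%) and 149 for replicate 3 (99.3%). Over all candidates of the same choices the shares were 15.1, 14.2 and 17.1%. Most candidates were not picked for a high early level, so the gap between these shares largely follows from the choice. The left-out early level was a median of 1.48, 1.45 and 1.42 times the highest other library. Only the left-out library stood outside the choice, since the 6 others had been used to choose. It may share its plants with the early libraries that were used, as the labels do not say.

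Left-out late and terrestrial libraries were read for lying below every early one. The count was 140, 149 and 133 of 150 for late hydroponic replicates 1, 2 and 3, and 150, 150 and 148 for the terrestrial ones, where 22.9 to 35.3% of candidates lay below. In late hydroponic replicate 3, the 150 contigs chosen without it reached a median of 0.73 times the lowest early library and at most 2.51 times it. No p-value is given, because each reading rests on 1 library.

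**Figure D5:**
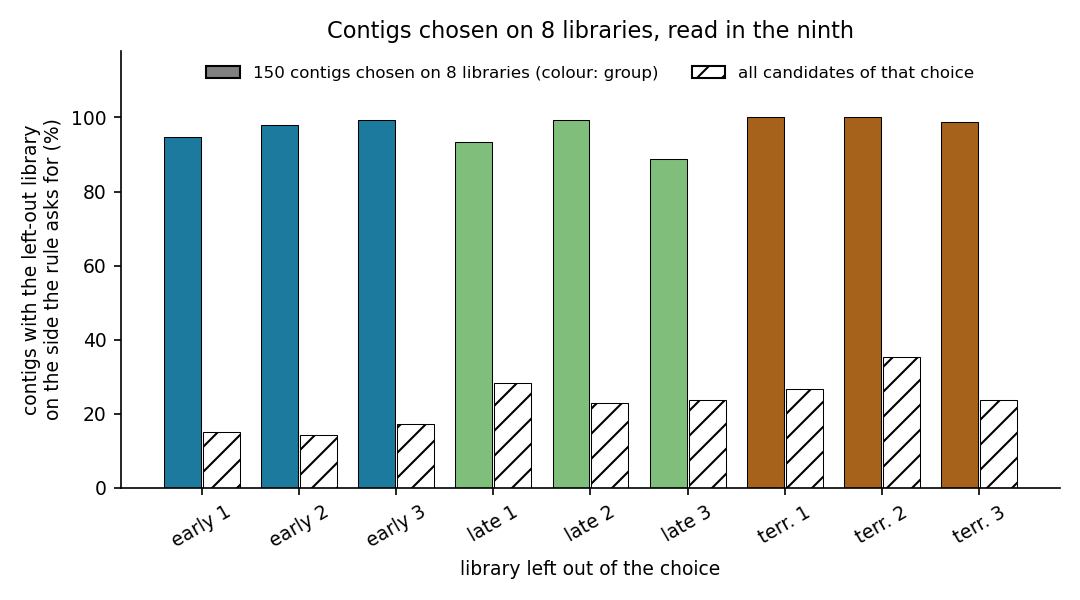
Share of 150 contigs (%) chosen on 8 libraries whose value in the left-out library fell on the side the rule asks for: above all late and terrestrial libraries for an early one, below all early libraries for the others. Coloured bars are the chosen contigs and hatched bars all candidates of that choice; the lowest coloured bar is late hydroponic replicate 3, at 88.7%.

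In the fit across 26747 contigs, edgeR's quasi-likelihood test, with p-values adjusted over all of them by Benjamini-Hochberg and a threshold of 0.05, called all 150 higher in early hydroponic than in terrestrial roots, where 30.1% of all contigs tested were called higher. It called 128 of the 150 lower in late than in early hydroponic roots, where 6.30% of all contigs were. Both counts use the contrasts that chose the contigs and support nothing beyond the choice. The median log2 change of the 150 was 1.23 for early hydroponic over terrestrial roots and -0.99 for late over early hydroponic roots, against -0.09 and 0.04 over all contigs tested. The second count was 73, 80 and 83 without early hydroponic replicate 1, 2 and 3 and 81 without late hydroponic replicate 1. In these settings 651 of 28110, 654 of 28045, 707 of 28039 and 749 of 28011 contigs tested were called lower. With all 9 libraries that number was 1684 of 26747, so calls fell over all contigs too.

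Between late hydroponic and terrestrial roots 25 of the 150 were called higher, against 28.7% of all contigs tested, and 0 lower, against 24.2%. At an unadjusted p under 0.05 edgeR's counts among the 150 were 34 higher and 0 lower, with no count over all contigs given at that threshold. After adjustment DESeq2 called 29 of the 150 higher and 2 lower, and limma on log2(FPKM + 1) called 15 and 2. Over all 26747 contigs tested, DESeq2 called 7759 higher and 6494 lower, and limma 7175 and 7687. The band around equal means limits such calls, so these counts and shares say nothing about the contigs. The median log2 change was 0.26, against 0.02 over all contigs. With late hydroponic replicate 3 and terrestrial replicate 2 both left out, a setting chosen once the values were known, the counts were 12 higher and 13 lower and the median was -0.01. Over all 27681 contigs tested in that setting, 6852 were called higher and 5815 lower. Among the 150, the total called was 14 without terrestrial replicate 1 and 15 without terrestrial replicate 3. Over all contigs tested, 6791 higher and 5448 lower of 27745 were called without replicate 1, and 7212 and 5841 of 27860 without replicate 3.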

How the data were processed

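RNA of ramie roots was sequenced in 3 early hydroponic, 3 late hydroponic and 3 terrestrial libraries. Per the series' design text, reads of pooled roots were assembled de novo into contigs, against which the libraries were quantified. The aligner, counting program and versions are not given in the sources used here. The authors deposited expected counts, which need not be whole, and FPKM values per contig, per the file headers, with contig length as another column. A contig not listed in a library was taken as 0, and no member was affected.

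The rule was applied to the deposited FPKM. Members, named-contig rule and comparisons were chosen with earlier results of these data known. The named contigs are the first 10 by ratio, the first 5 by early level, the 3 just inside and outside, and the extremes of late over terrestrial level, early variation and length (2 each), with the leaders of the compared sets. Rounded expected counts were fitted with edgeR 4.0.16 in R 4.3.3 (TMM, filterByExpr, robust quasi-likelihood, 3 groups, 6 residual degrees of freedom, no block). All 150 members passed this filter, as their count minimum ensures. DESeq2 1.42.0 and limma 3.58.1 were alternatives. The p-values measure the spread between these libraries, which may be technical. Counting intervals are exact binomial (95%) from the counts of the nearest libraries, computed with SciPy 1.17.1.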

Additional observations from a re-analysis of the deposited data

How the results depend on the processing

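The choice of contigs depended on the settings. Of the 150, 84 remained with a band of 1.2, 82 with a band of 2, 99 when ranked by group means and 44 when late hydroponic replicate 3 was left out together with terrestrial replicate 2, a setting added after the data were examined. Between 69 and 129 remained without one library, and 108 to 134 under the other alternatives. The median of mean early over highest other level was 1.475 as deposited (an early peak being fixed by the choice), 1.627 with TMM factors, 1.389 with a minimum count of 50, 1.343 and 1.616 with bands of 1.2 and 2, 1.46 to 1.543 without one library and 1.549 without the pair. Calls for early hydroponic against terrestrial roots numbered 142 to 150 over 19 alternatives. Over all contigs tested, the number called higher ran from 6129 of 18460, with at least 50 counts in 3 libraries, to 9480 of 40285, with no count filter. The first of these 2 settings tested 144 of the 150. Calls for late against early hydroponic roots ran from 73 to 142 without one library and numbered 146 without the pair. Over all contigs tested, 651 of 28110 to 3031 of 28238 were called lower with a single library left out and 3692 of 27681 without the pair. Calls for late hydroponic against terrestrial roots were 15 with library totals alone and 14 with limma on log2(FPKM + 1) without a filter. They ran from 14 to 33 without one library. Over all contigs tested, library totals gave 7051 higher and 7159 lower of 26747, and that limma fit 8182 and 8452 of 40285. With a single library left out, 27745 to 28238 contigs were tested, of which 6791 to 7676 were called higher and 5448 to 6359 lower. Left-out values kept their side in 130 to 150 of 150 contigs with bands of 1.2 and 2, a minimum count of 50 and TMM factors, the alternatives run for them. No share over candidates is given beside these counts, so they describe the altered choices and support nothing further. Library totals shifted the median log2 change of all contigs for early hydroponic against terrestrial roots to -0.32, where TMM gave -0.09. Deviations from the group mean correlated at -0.093 to 0.135 between same-numbered libraries and at -0.165 to 0.126 between differently numbered ones. These values do not settle whether the numbers pair samples. The replicate block gave 149, 108 and 24 calls among the 150 in the 3 comparisons. Over all 26747 contigs tested, it called 7876 higher in early hydroponic than in terrestrial roots and 1357 lower in late than in early hydroponic roots. Between late hydroponic and terrestrial roots it called 7356 higher and 6216 lower. Causes of these shifts were not tested. The counting interval reached 1 in 24 of the 150, which depends both on the counts and on how near the ratio is to 1.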

Other observations

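After Unigene13123_mixA, the next contigs that entered the first 150 when late hydroponic replicate 3 was left out were Unigene4121_mixA and Unigene31252_mixA, named after their values were seen. Unigene4121_mixA (1848 bases) stood at 30.6, 32.3 and 15.5 FPKM in early hydroponic replicates 1, 2 and 3, at 0.92, 1.92 and 6.08 FPKM in the late ones and at 1.46, 0.96 and 1.54 FPKM in the terrestrial ones. Unigene31252_mixA (2053 bases) stood at 216, 198 and 215 FPKM in early, 15.8, 26.5 and 81.7 FPKM in late and 22.4, 7.33 and 18.1 FPKM in terrestrial libraries. In both, late hydroponic replicate 3 lay between the early libraries and the other late ones, and the late mean over all 3 libraries was 2.25 and 2.59 times the terrestrial mean, outside the band. Their ratios of lowest early to highest other library were 8.07 and 7.46 without late hydroponic replicate 3, above the 2.79 of Unigene9_mixA, the first of the early-peak contigs. Late hydroponic replicate 3 lay above the lowest early library in 17 of the 81 contigs that entered, a set formed by dropping that library.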
